A study of Mus musculus with 8 samples.

Results

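Integrins are heterodimers of an alpha and a beta subunit that carry cells along vessel walls and through matrix. The transcripts of 10 integrin subunit genes were followed here in mouse neutrophils that had migrated into air pouches injected with lipopolysaccharide (LPS): Itgam, Itgal, Itgax, Itgb2, Itga4, Itga5, Itga6, Itgav, Itgb1 and Itgb3. These were taken as every probe set with a single platform gene symbol on that list, which gave 10 of 22180 genes and 11 of 34472 probe sets, 1 for each gene and 2 for Itgav. Transcript levels were measured on 8 Affymetrix Mouse Gene 2.0 ST arrays, each with RNA of 1 pool of 5 mice, whose neutrophils were enriched by negative selection until 98% were Ly6G-positive. Of these, 3 arrays held the Arf6 conditional knockout (cKO, flox+/+Cre+/+), 2 the Cre control (flox-/-Cre+/+) and 3 the flox control (flox+/+Cre-/-), and all mice had been given LPS. The cKO and the Cre control share the Cre transgene, and the cKO and the flox control share the floxed allele. The promoter that drives Cre, the strain, sex and age of the mice and the hours between LPS and collection are not given in these sources.

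In neutrophils the beta2 integrins, built on the Itgb2 product CD18, hold the cell on endothelium and bind complement-coated particles, while beta1 and beta3 integrins bind fibronectin, laminin, vitronectin and VCAM-1. The small GTPase ARF6 acts in the endosomal traffic that returns internalised integrins to the cell surface. The arrays read transcripts, and neither the surface amount nor the activation of any integrin was measured.

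Arf6 itself checked the labels, because the source field of every array disagrees with its title and its genotype tag. Arf6 (probe set 17275925, chromosome 12) read 6.49, 6.06 and 6.20 in the cKO, 7.79 and 7.86 in the Cre control and 8.19, 8.20 and 7.68 in the flox control (log2 intensity), so the levels followed the titles. A second Arf6 probe set (17281565) did not separate the groups, at 6.49, 6.13 and 6.25 in the cKO, 6.33 and 6.33 in the Cre control and 6.81, 6.65 and 6.20 in the flox control. Against both controls the first Arf6 probe set fell by 1.67 (log2, SE 0.15, adjusted p = 0.0122 in a limma fit across all 14002 probe sets tested). It was the only one of them past the threshold, an adjusted p under 0.05, in that comparison (0.00714% called). The Arf6 difference stayed between -1.79 and -1.58 over the alternatives, but its call was lost without flox control replicate 2 (adjusted p = 0.0773), without either Cre control array (0.154 and 0.182) and without the 2 pools described next (0.0791), and no probe set was then called. The count was 13 with array weights, 3 without cKO replicate 2 and 31 without cKO replicate 3. Of 12 neutrophil markers, 11 were above the median of all values (5.45) on every array, among them Ly6g (10.54 to 11.47) and S100a9 (13.15 to 13.47), and Camp (5.15 to 6.70) was above it on 5 of 8. On 2 arrays sex-linked transcripts stood apart: Xist was lowest in flox control replicate 1 (5.46, against 7.84 to 10.21 elsewhere), and the Y-linked Eif2s3y was lowest in cKO replicate 1 (4.08, against 8.66 to 10.04 elsewhere).

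Of the 10 integrin genes, 6 had a promoter window in the RefSeq table of GRCm38.p6 (250 bases before to 50 after the annotated start), and Itgal, Itgb2, Itga6 and Itgb3 had none. Windows are shown for the 4 of these 6 genes whose levels spread most over the 8 arrays, namely Itga4, Itgav, Itgax and Itga5, written 5′ to 3′ on the gene's own strand. Capitals mark matches on either strand to short core motifs of factors active in myeloid cells or at GC-rich promoters: GAGGAA for PU.1, TGANTCA for AP-1, TGTGGT for RUNX and GGGCGG for Sp1.
Itga4 (chr2:79255176-79255475, plus strand): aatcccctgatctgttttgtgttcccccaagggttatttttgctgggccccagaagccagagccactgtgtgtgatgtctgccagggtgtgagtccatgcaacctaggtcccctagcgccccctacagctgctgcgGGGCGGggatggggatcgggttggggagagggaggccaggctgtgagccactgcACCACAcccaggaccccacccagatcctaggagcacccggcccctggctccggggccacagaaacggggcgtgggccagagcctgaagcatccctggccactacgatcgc
Itgav (chr2:83724147-83724446, plus strand): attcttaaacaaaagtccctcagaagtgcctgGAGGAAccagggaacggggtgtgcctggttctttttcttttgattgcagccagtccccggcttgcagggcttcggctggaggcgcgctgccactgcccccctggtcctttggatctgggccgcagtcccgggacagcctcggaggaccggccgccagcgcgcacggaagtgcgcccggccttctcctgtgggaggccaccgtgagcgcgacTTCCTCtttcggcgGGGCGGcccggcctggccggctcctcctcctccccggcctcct
Itgax (chr7:128129300-128129599, plus strand): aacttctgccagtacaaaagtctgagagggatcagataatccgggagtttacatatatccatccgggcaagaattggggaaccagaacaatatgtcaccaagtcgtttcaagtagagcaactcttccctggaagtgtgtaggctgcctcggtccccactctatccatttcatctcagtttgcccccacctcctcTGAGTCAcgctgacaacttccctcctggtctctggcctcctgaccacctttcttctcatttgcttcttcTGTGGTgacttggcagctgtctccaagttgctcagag
Itga5 (chr15:103366742-103367041, minus strand): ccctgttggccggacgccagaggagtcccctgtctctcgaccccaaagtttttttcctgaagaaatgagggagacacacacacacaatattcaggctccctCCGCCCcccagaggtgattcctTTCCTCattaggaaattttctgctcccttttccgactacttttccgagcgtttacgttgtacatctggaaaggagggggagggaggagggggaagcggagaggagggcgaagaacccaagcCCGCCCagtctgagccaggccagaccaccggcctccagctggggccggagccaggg
The Itgax window held 1 AP-1 and 1 RUNX match, and it was the only 1 of the 6 windows with an AP-1 match. The Itga4 window held 1 RUNX and 1 Sp1 match, the Itgav window 2 PU.1 matches and 1 Sp1 match, and the Itga5 window 1 PU.1 match and 2 Sp1 matches. None of these matches overlapped another. Over all 32851 windows of 300 bases in the table, 28.3% held the PU.1 core, 7.81% the AP-1 motif, 16.8% the RUNX core and 35.7% the Sp1 core. These matches are strings of letters and were not tested against the expression values.

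The first comparison asked whether the transcript levels of integrin subunits differ in the cKO from both controls. None of the 10 integrin probe sets tested passed the threshold against both controls (adjusted p 0.534 to 0.997 by limma). None passed at an unadjusted p under 0.05 either, where 9.52% of all probe sets did. Their differences (cKO minus the mean of the 2 control groups) ran from -0.32 for Itga5 to 0.44 for Itgav, with a median of 0.10, against 0.01 over all probe sets tested. Of the 10, 7 were above 0 and 3 below, where 53.4% of all probe sets were above 0.

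**Figure D1:**
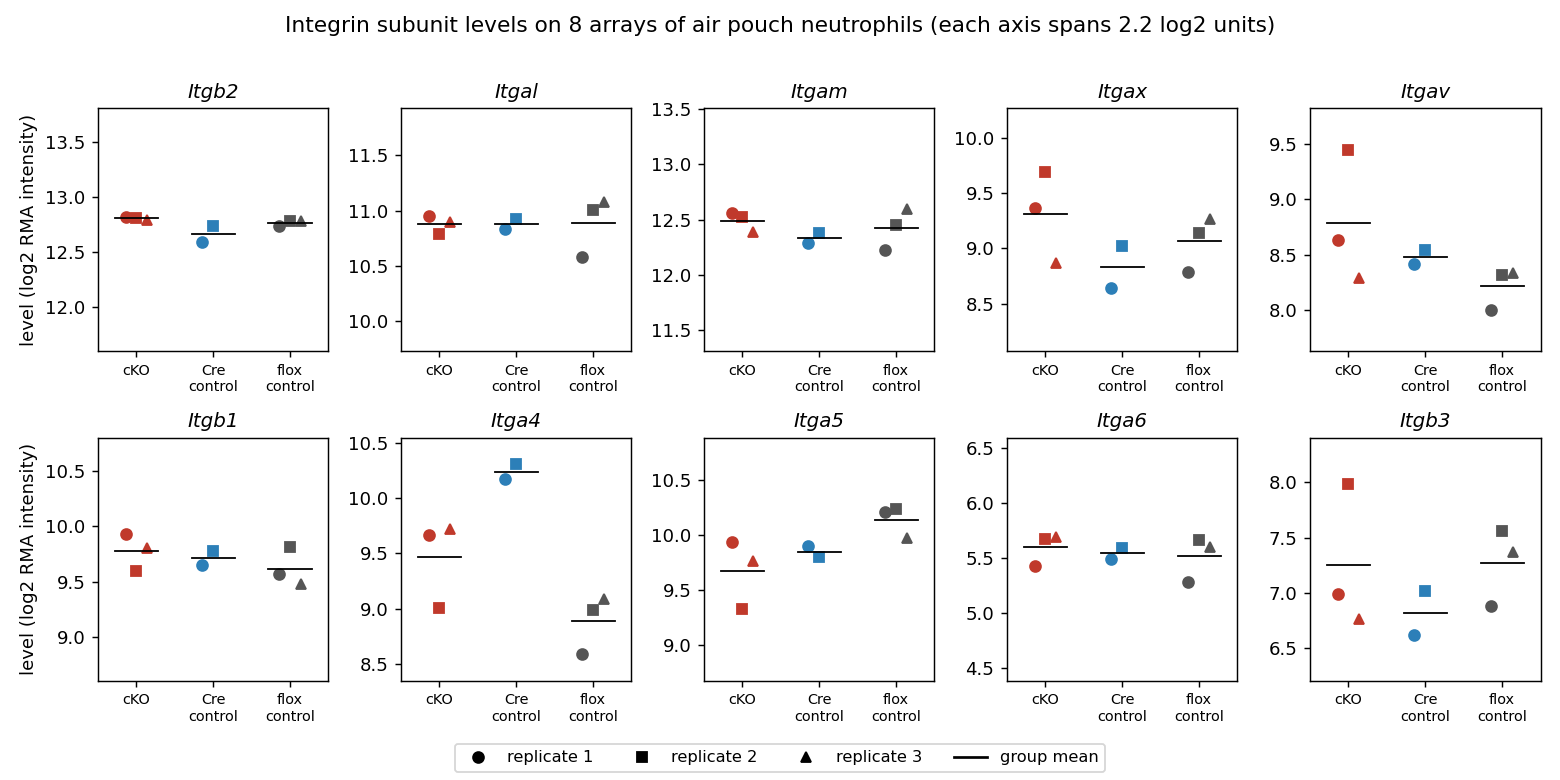
Level (log2 RMA intensity, y axis) of 10 integrin subunit transcripts in the cKO, the Cre control and the flox control (x axis); symbols are arrays by replicate and bars are group means. The Itgb2 points nearly coincide between 12.59 and 12.82, Itga4 separates the Cre control (10.17 and 10.31) from the other arrays, and cKO replicate 2 is highest for Itgax, Itgav and Itgb3.

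Among the beta2 integrin chains, Itgb2 differed least between arrays and Itgax most. Itgb2, which encodes the beta chain shared by all leukocyte beta2 integrins, read 12.82, 12.81 and 12.79 in the cKO, 12.59 and 12.73 in the Cre control and 12.73, 12.78 and 12.78 in the flox control. The 3 cKO arrays lay just above all 5 control arrays. It was the only 1 of the 10 integrin probe sets without overlap in this comparison, where 4.36% of all probe sets did not overlap and 2.11% had the cKO above. The difference from both controls was 0.09 (SE 0.09, adjusted p = 0.814), with a 95% interval of -0.11 to 0.30. The range of Itgb2 over the 8 arrays was 0.23, and 2.86% of tested probe sets had a range as narrow. The median range of all tested probe sets was 0.57.

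Itgam encodes CD11b, the alpha chain of Mac-1 (complement receptor 3). It read 12.56, 12.52 and 12.39 in the cKO, 12.29 and 12.38 in the Cre control and 12.22, 12.45 and 12.59 in the flox control. The cKO overlapped the 5 control arrays, and the cKO arrays lay above the 2 Cre control arrays alone. Its difference from both controls was 0.11 (SE 0.11, 95% interval -0.14 to 0.37, adjusted p = 0.822).

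Itgal encodes CD11a, the alpha chain of LFA-1, which binds ICAM-1. It read 10.95, 10.79 and 10.90 in the cKO, 10.83 and 10.93 in the Cre control and 10.58, 11.01 and 11.08 in the flox control. Its group means were 10.88 ± 0.08 (SD, n = 3), 10.88 ± 0.07 (SD, n = 2) and 10.89 ± 0.27 (SD, n = 3) in the same order, and flox control replicate 1 was lowest. The 95% interval of its difference from both controls was -0.30 to 0.29.

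Itgax encodes CD11c, the alpha chain of complement receptor 4 and a common marker of dendritic cells. It read 9.37, 9.69 and 8.87 in the cKO, 8.64 and 9.02 in the Cre control and 8.78, 9.14 and 9.27 in the flox control. The cKO held both the highest array and, in replicate 3, one within the range of the controls. The summed linear intensity of 9 dendritic cell and class II genes was 4523 to 5524 in the cKO, 4999 to 5045 in the Cre control and 3254 to 4412 in the flox control, and the part of such cells in the Itgax level was not tested. The difference of Itgax from both controls was 0.36 (SE 0.20, 95% interval -0.08 to 0.80, adjusted p = 0.611). Itgal, Itgam and Itgax all lie on chromosome 7, with ranges over the 8 arrays of 0.50, 0.37 and 1.05.

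**Figure D2:**
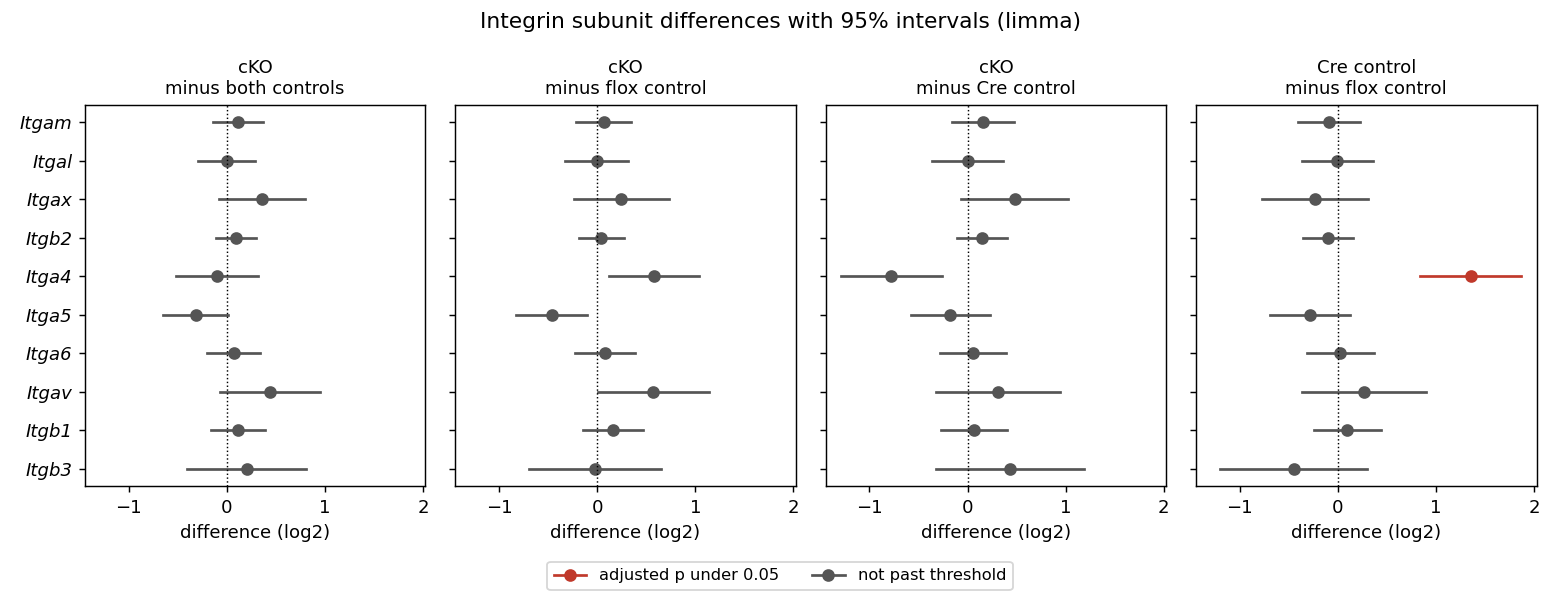
Difference in log2 level (x axis) of each integrin transcript (y axis) in 4 comparisons, named first group minus second; points are limma estimates, lines 95% intervals, and red marks adjusted p under 0.05. Only Itga4 in the Cre control minus the flox control, at 1.35, is red, and most other intervals cross 0.

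Among the beta1 partners, Itga4 differed most between arrays. It encodes CD49d, the alpha chain of VLA-4, a receptor for VCAM-1 and fibronectin that is abundant on lymphocytes, monocytes and eosinophils. Itga4 read 9.67, 9.002 and 9.72 in the cKO, 10.17 and 10.31 in the Cre control and 8.59, 8.99 and 9.09 in the flox control. The Cre control was highest without overlap with any other array, and cKO replicate 2 lay within the range of the flox control. Its range of 1.72 was at least as wide as that of 97.5% of tested probe sets.

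Between the controls, Itga4 rose 2.55-fold in Cre over flox arrays (log2 1.35, SE 0.23, 95% interval 0.84 to 1.87, adjusted p = 0.0448 by limma). It was the only 1 of the 10 integrin probe sets past the threshold between the control groups, where 0.486% of all probe sets passed. At an unadjusted p under 0.05 it was also the only 1 of the 10, where 14.7% of all probe sets passed. Over the alternatives tried the difference kept its direction (1.20 to 1.45), but the call was lost in 7 of 18. Adjusted p was 0.0905 without flox control replicate 1, 0.12 without flox control replicate 2, 0.0819 without cKO replicate 1, 0.331 without Cre control replicate 1 and 0.323 without Cre control replicate 2. It was 0.14 without the 2 pools set apart by Xist or Eif2s3y, and 0.0509 with each array centred on its median. With array weights it was 0.00486, where 5.85% of all probe sets passed.

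The cKO lay between the 2 controls for Itga4. Against the Cre control it differed by -0.78 (SE 0.23, 95% interval -1.29 to -0.26, adjusted p = 0.218), with no overlap of the arrays, and against the flox control by 0.58 (SE 0.21, 95% interval 0.12 to 1.04, adjusted p = 0.515). Neither difference passed the threshold, and they have opposite signs. The difference from both controls, -0.10 (SE 0.19), averages control groups that themselves differ, and it was 0.13 without cKO replicate 2. Without the 2 pools set apart by sex-linked transcripts, Itga4 in the cKO differed by -0.28 from both controls and by 0.32 from flox arrays.

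Marker lists of other leukocytes were set beside Itga4. Of 16 T and NK cell markers 13 were measured, and their summed linear intensity was 1436 to 1632 in the cKO, 1848 to 1860 in the Cre control and 1098 to 1393 in the flox control, the same order of groups as for Itga4. Of the 11 of these tested, 10 were higher in the Cre control than in the flox control, 8 of them without overlap, where the Cre control arrays lay above in 15.3% of all probe sets. None passed, and Il7r, a receptor of lymphocytes, was nearest (log2 0.88, adjusted p = 0.0532 by limma). Il7r read 8.12 to 8.57 in the cKO, 8.42 to 8.44 in the Cre control and 7.40 to 7.75 in the flox control. Its cKO arrays overlapped the Cre control, unlike those of Itga4. Cd8a read 5.69 to 5.83 in the cKO, above the Cre control (5.50 to 5.67), and 5.33 to 5.51 in the flox control. Cd3d ran the other way between the controls. It read 5.55 to 6.36 in the cKO, 5.47 to 5.81 in the Cre control and 5.92 to 6.48 in the flox control. Cd4 and Klrb1c were above the median of all values (5.45) on no array. Cd3e read 6.15 to 6.45 in the cKO, 6.44 to 7.19 in the Cre control and 5.65 to 6.35 in the flox control.

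The neutrophil markers ran the other way, with a summed intensity of 76418 to 80209 in the cKO, 73836 to 74189 in the Cre control and 81146 to 83380 in the flox control, and 11 of 12 were lower in the Cre control than in the flox control (17.4% of all probe sets had the Cre control below without overlap, and 9 of these 12 did). The summed intensity of 13 macrophage and monocyte markers was 10702 to 14735 in the cKO, 14877 to 15278 in the Cre control and 11623 to 16376 in the flox control, and Cd163 was above the median of all values on no array. Of the 12 of these tested, 10 were higher in Cre than in flox arrays (median 0.28, lowest adjusted p 0.0889 by limma), where 49.2% of all probe sets were higher. In 5 of them the Cre control lay above without overlap, as in 15.3% of all probe sets. By mean log2 level the 13 stood at 8.52 to 8.56 in the Cre control and 8.03 to 8.46 in the flox control. The cKO lay at 8.25 to 8.39. The summed intensity of 14 eosinophil, basophil and mast cell markers was 1186 to 1718 in the cKO, 1289 to 1876 in the Cre control and 1047 to 1344 in the flox control. Cpa3, Epx, Fcer1a, Mcpt4, Mcpt8 and Ms4a2 were above the median of all values on no array. Of the 7 of these tested, 6 were higher in Cre than in flox arrays (median 0.43), with overlap for each. By mean log2 level the 14 stood at 5.59 to 5.86 in the Cre control and 5.39 to 5.54 in the flox control. The cKO lay at 5.44 to 5.75. The summed intensity of 9 dendritic cell and class II genes was 4523 to 5524 in the cKO. It was 4999 to 5045 in the Cre control and 3254 to 4412 in the flox control. Of the 8 of these tested, 6 were higher in Cre than in flox arrays. The Cre control lay above without overlap in 5 and below in 1. No gene of these lists, or of those for B cells, dendritic cells, platelets and stroma, passed in any of the 4 comparisons by limma. The part of any of these cells in the Itga4 level was not tested. In bulk RNA, fewer cells of a type and less RNA per cell cannot be told apart.

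**Figure D3:**
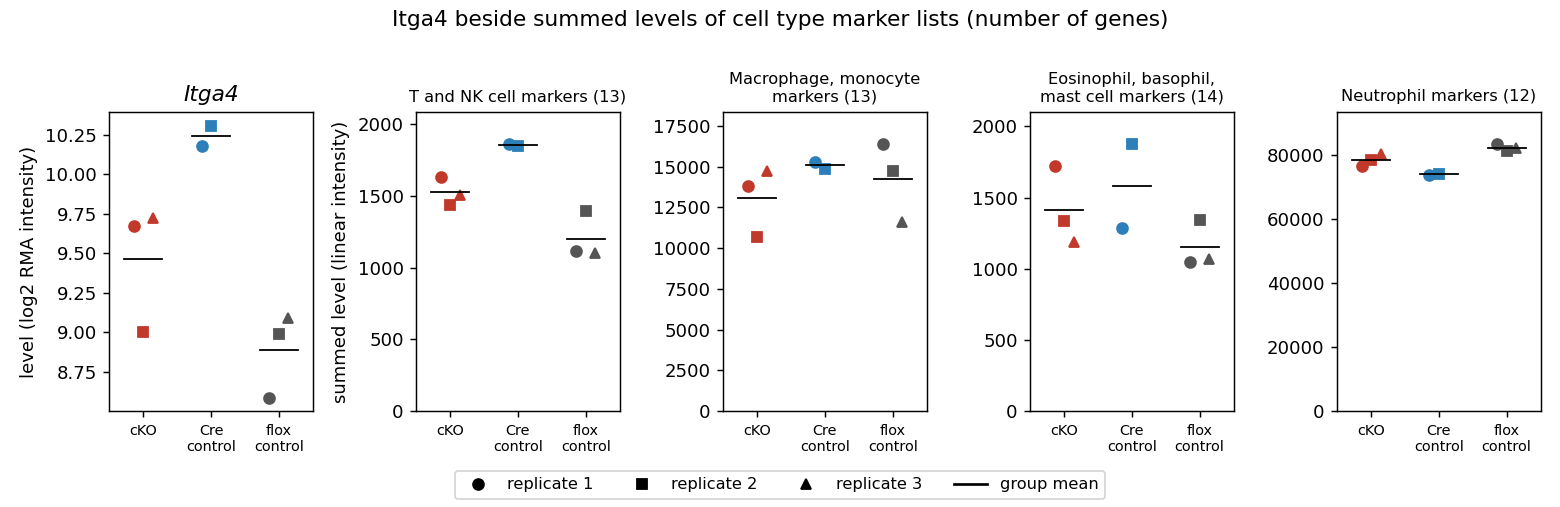
Level of Itga4 (log2 RMA intensity, left y axis) and the summed linear intensity of 4 marker lists (other y axes, from 0) in the cKO, the Cre control and the flox control (x axis); symbols are arrays by replicate and bars are group means. The Cre control is highest for Itga4 and for the T and NK cell markers (1848 and 1860) and lowest for the neutrophil markers (73836 and 74189), each without overlap. The summed intensities of the macrophage and eosinophil lists overlap between the Cre and flox controls, while their mean log2 levels (not drawn) do not.

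Itga5, the alpha chain of the fibronectin receptor VLA-5, read 9.94, 9.33 and 9.76 in the cKO, 9.90 and 9.80 in the Cre control and 10.21, 10.23 and 9.98 in the flox control. The cKO arrays lay below all 3 flox control arrays, as they did in 6.31% of all probe sets, and overlapped the Cre control. The difference was -0.46 against the flox control (SE 0.16, 95% interval -0.83 to -0.10, adjusted p = 0.506), -0.17 against the Cre control (SE 0.18) and -0.32 against both (SE 0.15, 95% interval -0.65 to 0.01, adjusted p = 0.534). None of these passed.

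Itga6, a laminin receptor chain used by leukocytes at basement membranes, was dim, between 5.43 and 5.69 in the cKO, 5.49 and 5.60 in the Cre control and 5.29 and 5.66 in the flox control. It exceeded the median of all values on 6 of 8 arrays, and its groups overlapped. The beta chain Itgb1 read 9.93, 9.60 and 9.80 in the cKO, 9.65 and 9.78 in the Cre control and 9.57, 9.81 and 9.47 in the flox control. Its range of 0.46 was narrow beside that of its partner Itga4, and its difference from both controls was 0.11 (SE 0.12, 95% interval -0.16 to 0.39, adjusted p = 0.833).

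Itgav encodes the alpha chain of vitronectin receptors, which pairs with several beta chains, Itgb3 among them. The tested Itgav probe set (17372515) read 8.63, 9.45 and 8.29 in the cKO, 8.42 and 8.54 in the Cre control and 8.003, 8.32 and 8.33 in the flox control. Replicate 2 of the cKO stood above every other array, and cKO replicate 3 lay inside the flox control's range. The difference was 0.57 against the flox control (SE 0.25, adjusted p = 0.597) and 0.44 against both controls (SE 0.23, 95% interval -0.07 to 0.95, adjusted p = 0.588). A second Itgav probe set (17387368) read 4.88, 4.97 and 5.05 in the cKO, 4.69 and 4.64 in the Cre control and 4.39, 4.82 and 4.77 in the flox control. Its cKO arrays lay above all control arrays, as in 2.11% of tested probe sets. Here cKO replicate 3 was highest, unlike in the tested Itgav probe set. The second probe set was below the median of all values on all 8 arrays and was not tested.

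Itgb3, the beta chain of the vitronectin receptor and of the platelet fibrinogen receptor, read 6.99, 7.99 and 6.77 in the cKO, 6.62 and 7.02 in the Cre control and 6.88, 7.56 and 7.37 in the flox control. The cKO held the highest array, in replicate 2, while its other 2 arrays lay within or below the range of the flox control. The difference from both controls was 0.21 (SE 0.27, 95% interval -0.40 to 0.81, adjusted p = 0.871), the widest interval among the 10 genes.

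Array cKO replicate 2 stood apart from the other cKO arrays for several of these genes. Beside the mean of the other 2 cKO arrays it was 1.11 higher for Itgb3, 0.99 higher for Itgav and 0.58 higher for Itgax (log2), and 0.69 lower for Itga4 and 0.53 lower for Itga5, while Itgb2 differed by 0.01 and Itgam by 0.05. Without this array the difference from both controls was 0.11 for Itgav, 0.17 for Itgax, -0.16 for Itgb3 and -0.14 for Itga5. Without cKO replicate 3 it was 0.69 for Itgav (adjusted p = 0.186), 0.58 for Itgax (adjusted p = 0.186), 0.45 for Itgb3 and -0.36 for Itga5. Neither removal gave an integrin call against both controls. On cKO replicate 2 the summed intensity of dendritic cell and class II genes was 5524, against 4969 and 4523 on the other cKO arrays. That of the macrophage and monocyte markers was 10702, against 13822 and 14735. By mean log2 level these markers were not lowest there, at 8.26 against 8.39 and 8.25. The summed intensity of the platelet markers, among them Itga2b, the partner of Itgb3 in platelets, was 656 against 582 and 580. That of the fibroblast and endothelial markers was 1048, against 2168 and 1889. Over all 8 arrays the platelet sum was highest in Cre control replicate 1 (700), where Itgb3 was lowest (6.62). Single platelet markers did not share 1 order of groups. Gp6 read 5.82 to 6.53 in the cKO, 6.97 to 7.42 in the Cre control and 6.55 to 6.83 in the flox control. Ppbp read 5.80 to 6.90, 5.76 to 5.83 and 6.07 to 6.10 in the same order. The part of these cells in the levels on cKO replicate 2 was not tested.

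**Figure D4:**
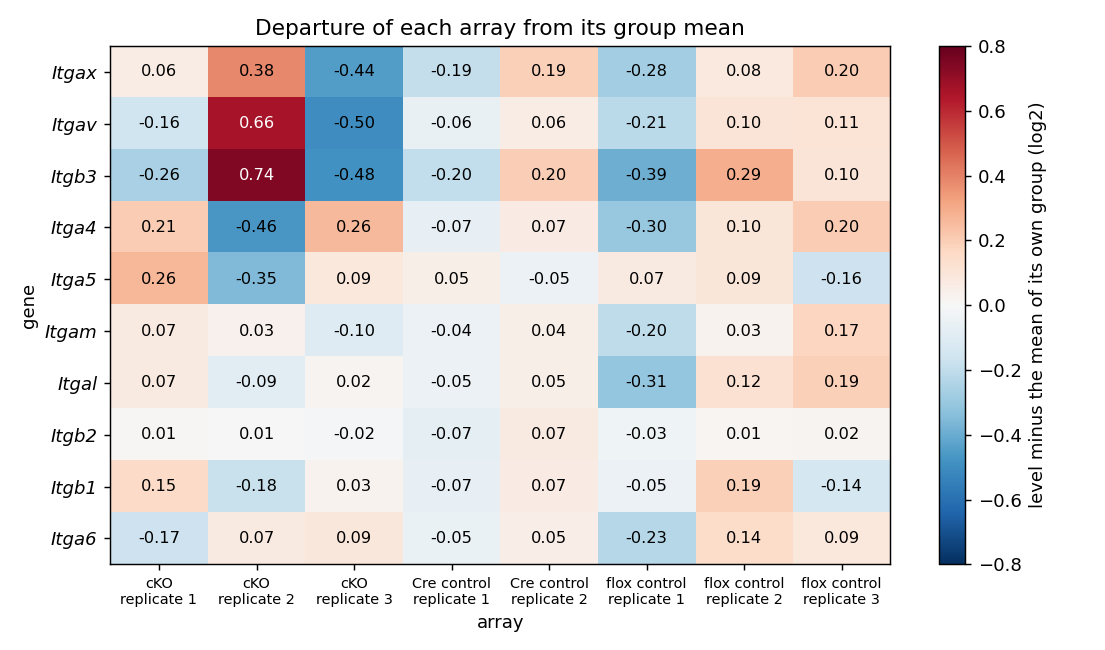
Departure of each array (columns) from the mean of its own group for 10 integrin transcripts (rows), in log2 units by colour and number. The column of cKO replicate 2 holds the highest positive values (0.74 for Itgb3, 0.66 for Itgav) and also -0.46 for Itga4, while the Itgb2 row stays within 0.07 of 0.

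Against each control group alone, no integrin probe set passed either. Against the Cre control adjusted p was 0.218 to 0.999, 1 of the 10 reached an unadjusted limma p under 0.05 (13.5% of all probe sets) and 3 of the 10 did not overlap (34.4%), where 0.0714% of all probe sets passed. Itga4 was below (16.0% of all probe sets) and Itgam and Itgb2 were above (18.5%). Of the 10, 8 were higher in the cKO and 2 lower, where 52.0% of all probe sets were higher. Against the flox control adjusted p was 0.506 to 0.994, 3 of the 10 reached an unadjusted limma p under 0.05 (8.26%) and 2 of the 10 did not overlap (12.2%), where 0.0429% passed. These 3 were Itga4, Itga5 and Itgav, and the 2 were Itga5 below and Itgb2 above (5.93% of all probe sets). Here 7 were higher and 3 lower, where 52.4% were higher. Between the controls 3 of the 10 did not overlap (32.7%), with Itga4 and Itgav above and Itga5 below in the Cre control, and 4 were higher and 6 lower, where 49.2% were higher. The comparisons share arrays and are given side by side for that reason. The 95% intervals of the 10 genes reached from 0.21 to 0.61 to either side against both controls. They reached from 0.23 to 0.67 against the flox control and from 0.26 to 0.75 against the Cre control. All are given before any adjustment for the number of probe sets.

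Other genes of the integrin system were counted in 5 lists, with 1 probe set per gene. Of 77 genes tested none passed in any of the 4 comparisons by limma. At an unadjusted p under 0.05 there were 10 for the cKO with both controls, 7 with the flox control alone and 16 with the Cre control alone, and 10 between the controls. Over all probe sets the shares at that p were 9.52%, 8.26%, 13.5% and 14.7% in the same order. Without cKO replicate 2 the cKO counts were 3, 2 and 13 in that order. Of all 14002 probe sets, 747, 911 and 1312 then reached that p. Without cKO replicate 3 the cKO counts were 12, 12 and 21, beside 1922, 1555 and 2266 of all probe sets. With array weights, 2 of the 77 passed between the controls, Itgb8 and Itga9, where 5.85% of all probe sets passed under that setting. In the list of other integrin subunits, 4 of 12 tested genes were higher and 8 lower in the cKO than in both controls (median -0.04). Itga9, a chain that binds VCAM-1 and tenascin and is described on human neutrophils, read 5.27 to 5.41 in the cKO, 5.73 to 5.81 in the Cre control and 5.06 to 5.45 in the flox control. Its difference was -0.18 from both controls (SE 0.12). Itga2b read -0.14 (SE 0.10), Itga1, a collagen receptor chain, 0.31 (SE 0.16) and Itga7, a laminin receptor chain, 0.16 (SE 0.10) in the same comparison.

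Of 23 genes of integrin activation and adaptors, 14 were higher and 9 lower in the cKO than in both controls (median 0.02), 3 of them at an unadjusted limma p under 0.05 (9.52% of all probe sets). Fermt3 encodes kindlin-3, which binds beta integrin tails and is needed for their activation in blood cells. It read 9.04, 9.11 and 8.84 in the cKO, 8.48 and 8.45 in the Cre control and 8.82, 9.07 and 8.62 in the flox control, a difference of 0.35 from both controls (SE 0.13, adjusted p = 0.432). The cKO and flox control arrays overlapped and the Cre control was lowest.

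Cyth1 encodes cytohesin-1, an exchange factor of ARF GTPases that binds the CD18 tail. It read 8.73, 10.18 and 8.52 in the cKO, 7.69 and 7.83 in the Cre control and 8.01, 8.51 and 8.98 in the flox control. Here too cKO replicate 2 was highest, and the cKO exceeded both controls by 1.02 (SE 0.36), which did not pass (adjusted p = 0.423). Arhgap15, a GTPase-activating protein of Rac, read -0.32 (SE 0.13) and Fyb, the adaptor ADAP, -0.30 (SE 0.15) in that comparison.

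Of 19 outside-in signalling genes 11 were higher and 8 lower (median 0.06). The catalytic phosphoinositide 3-kinase subunit Pik3cd read 9.86, 9.30 and 10.20 in the cKO, 10.49 and 10.37 in the Cre control and 10.21, 10.35 and 9.99 in the flox control, a difference of -0.52 from both (SE 0.19, adjusted p = 0.43). Another catalytic subunit, Pik3cb, read 0.44 (SE 0.22), the GTPase Rac1 0.20 (SE 0.10) and the adaptor Lcp2, also called SLP-76, -0.19 (SE 0.10).

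Of 13 ligands and counter-receptors 5 were higher and 8 lower (median -0.05), 5 of them reached an unadjusted limma p under 0.05 (9.52% of all probe sets), and in 4 the cKO arrays lay below all control arrays, as in 2.25% of all probe sets. Icam1, the ligand of LFA-1 and Mac-1, read 11.71, 11.23 and 12.27 in the cKO, 12.56 and 12.35 in the Cre control and 12.48, 12.34 and 12.33 in the flox control. The 3 cKO arrays were lowest, and replicate 3 by a small margin. F11r encodes JAM-A, a junctional ligand of LFA-1. It read 6.77, 6.25 and 6.98 in the cKO, 7.11 and 7.20 in the Cre control and 7.66, 7.22 and 7.05 in the flox control, again without overlap. The differences from both controls were -0.68 for Icam1 (SE 0.20, adjusted p = 0.369) and -0.57 for F11r (SE 0.19, adjusted p = 0.402). Thbs1, the matrix protein thrombospondin-1, read 0.41 (SE 0.15) and Icam2, another LFA-1 ligand, 0.13 (SE 0.10).

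Of 10 partners of integrins in the membrane 8 were higher and 2 lower (median 0.14). Slc3a2 encodes the CD98 heavy chain, which associates with beta1 and beta3 integrins. It read 11.76, 12.34 and 11.71 in the cKO, 11.27 and 11.42 in the Cre control and 11.48, 11.57 and 11.59 in the flox control. The cKO arrays lay above all controls, by 0.49 on average (SE 0.15, adjusted p = 0.369), which did not pass. Plaur, the urokinase receptor, read 0.22 (SE 0.14), the integrin-associated protein Cd47 -0.26 (SE 0.14) and the tetraspanin Cd151 -0.02 (SE 0.16).

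**Figure D5:**
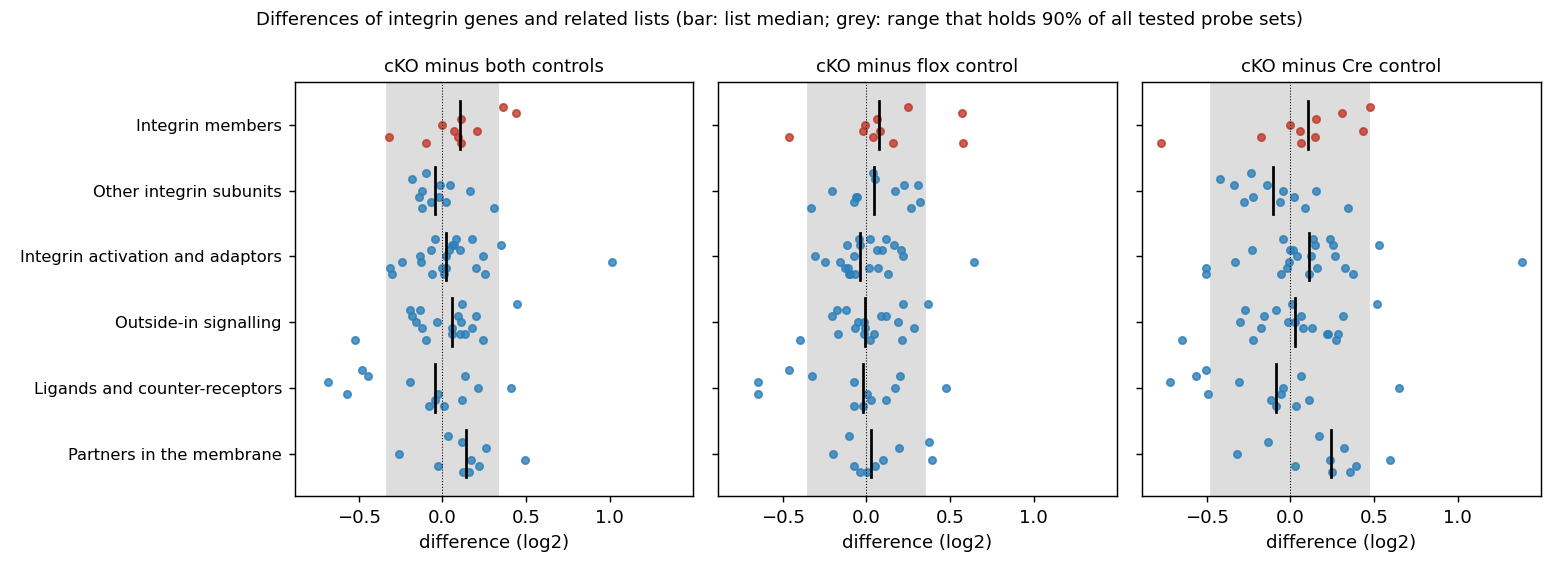
Differences in log2 level (x axis) of the cKO minus both controls, the flox control or the Cre control for the 10 integrin transcripts (red) and 5 lists of related genes (blue, rows); black bars are list medians and the grey band holds 90% of all tested probe sets around 0. Medians lie between -0.05 and 0.14 against both controls, and single genes such as Cyth1 (1.02) and Icam1 (-0.68) lie outside the band.

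The genes whose pattern over the 8 arrays was most like that of the 2 widest-ranging integrin transcripts were found by the root mean square difference of log2 levels after centring each on its mean. For Itga4 these were Sp110, an interferon-induced nuclear body protein (0.11), Mycbp2, a ubiquitin ligase (0.17), and Il2ra, the interleukin 2 receptor alpha chain (0.17), where Itga4 itself varied by 0.58 about its mean. Sp110 read 8.57, 7.91 and 8.86 in the cKO, 9.32 and 9.30 in the Cre control and 7.75, 8.07 and 8.29 in the flox control. That it too was highest in the Cre control and low in cKO replicate 2 follows from its choice by pattern. For Itgav, which varied by 0.40, they were Tbc1d9, a Rab GTPase-activating domain protein (0.09), Pnpla7, a lysophospholipase (0.10), and Fgd3 (0.11). Tbc1d9 read 6.91, 7.57 and 6.62 in the cKO, 6.76 and 6.76 in the Cre control and 6.37, 6.76 and 6.61 in the flox control. Each of the 3 was highest in cKO replicate 2, which likewise follows from how they were chosen.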

How the data were processed

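Per the series' design text, the authors made the deposited log2 probe set intensities by background subtraction and Robust Multiarray Analysis (RMA) in Affymetrix Expression Console from 100 ng of total RNA per array. Its version and the genome build are not given in these sources, and the design text and the labels differ on the RNA isolation reagent and the labelling kit. Array medians were 5.41 to 5.48, and correlations between arrays 0.977 to 0.992 across probe sets, so no scaling was added.

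Groups came from titles and genotype labels. The design text states 3 pools per genotype, of which the third with Cre alone was not analysed here. A single gene symbol was given for 23521 of 34472 probe sets, brought to current symbols through RefSeq gene identifiers (23328 matched), and several for 1814. The 14002 above the median of all values (5.45) on at least 2 arrays were tested, 10 of the 11 integrin probe sets among them, in 1 limma fit of 3 groups (limma 3.58.1, R 4.3.3) with two-sided tests and Benjamini-Hochberg adjustment over all of them (threshold 0.05). "Both controls" is the mean of the 2 control group means. The fit was tested on simulated data. Members, lists and markers were chosen with earlier results of these data known. All 10 integrin genes are named. From each list, genes past the threshold in the planned fit, or else the 2 lower and 2 higher with the smallest p against both controls, are named, and Cd3e, Cd4, Klrb1c, Il7r and the other markers were chosen after their values were seen. Alternatives covered the filter, scaling, variance model, array weights, samples fitted, probe sets per gene and leaving out arrays. Each array is a pool of separate mice, and the number of arrays limits the precision.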

Additional observations from a re-analysis of the deposited data

How the results depend on the processing

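Of 706 recalculated values for single integrin transcripts, 658 kept their direction and their side of the threshold, 41 changed sign and 7 lost a call, all 7 for Itga4 between the controls. The count of integrin probe sets past the threshold between the control groups, 1 as reported, was 0 with arrays centred on their medians and 0 without the 2 pools set apart by Xist or Eif2s3y, and 0 to 1 when single arrays were left out. The count of related integrin genes in that comparison, a result not planned in advance, was 2 with array weights. Every change of sign concerned a difference past no threshold, and the cause was not tested. Itgal against both controls was 0.0252 with quantile normalization and 0.0171 with centred arrays, and Itgal was 0.042 against the flox control and 0.0335 between the controls with quantile normalization. With array weights Itga6 was -0.0033 against both controls, -0.0338 against the flox control and -0.0609 between the controls, where Itgb1 was -0.0122. Between the controls Itga6 was -0.0087 with quantile normalization, -0.0078 with centred arrays and -0.0906 without the 2 pools. Without those pools the differences from both controls of Itgam and Itgb1 were 0.0258 and 0.0238, beside 0.11 and 0.11 with them, Itgam was -0.0693 against the flox control, and against the Cre control Itgal was -0.0352 and Itgb1 -0.012. With single arrays left out, the ranges that crossed 0 against both controls were -0.0808 to 0.044 for Itgal, -0.23 to 0.13 for Itga4 and -0.16 to 0.45 for Itgb3. Against the flox control they were -0.0348 to 0.15 for Itgam, -0.16 to 0.0875 for Itgal, -0.0344 to 0.16 for Itga6 and -0.39 to 0.22 for Itgb3. Against the Cre control they were -0.046 to 0.0471 for Itgal, -0.31 to 0.001 for Itga5, -0.0203 to 0.56 for Itgav and -0.012 to 0.15 for Itgb1, and between the controls -0.16 to 0.087 for Itgal and -0.0906 to 0.0965 for Itga6. Where a Cre control array was left out, the lone array was assumed to vary like the other groups. Fitting the compared groups alone gave no separate value for the comparison with both controls, which uses all arrays. No paired analysis was possible because the labels pair no arrays across groups. Itga6 and the second Itgav probe set were near or below the median of all values, where array signal is least able to show a difference.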

Other observations

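A probe set annotated to both Itga4 and the ceramide kinase-like gene Cerkl (17387246) was left out of the comparisons because it carries 2 symbols. It read 5.08, 5.40 and 5.53 in the cKO, 5.48 and 5.57 in the Cre control and 5.48, 5.28 and 5.21 in the flox control, and its groups overlapped, unlike those of the Itga4 probe set for the Cre control. These sources do not say which transcript it reads.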
